A study of Mus musculus with 6 samples.

Results

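Sonic hedgehog signaling was examined through 8 core genes, the ligand Shh, the receptor Ptch1, the signal transducer Smo, the inhibitors Hhip and Sufu, and the transcription factors Gli1, Gli2 and Gli3. They were chosen by gene symbol for their place in the pathway, with earlier results of these data known. All 8 were among the 15280 genes of the expression table. RNA-Seq had been performed on 3 mammary tumors and on the adjacent normal mammary gland of the same 3 mice. Both tissues came from parous BK5.ATF3 females, in which a bovine keratin 5 promoter drives the stress-response transcription factor ATF3 in basal epithelial cells, so the normal glands carry the transgene as well. Tumors of this line arise at 6 to 12 months of age, and tissue was taken when a tumor was 1.5 cm long. No tissue of a mouse without the transgene was compared here, and each mouse gave 1 tumor and 1 gland, whose libraries are named by mouse number with M for the gland and T for the tumor.

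In the absence of ligand, Patched-1 keeps Smoothened out of the primary cilium, and the Gli proteins are held back by Sufu or cut into repressors. Binding of a Hedgehog ligand to Patched-1 releases Smoothened, and full-length Gli proteins then activate target genes, among them Ptch1, Hhip and Gli1, whose products feed back on the pathway. In skin, Shh made by the placode epithelium drives the growth of hair follicles through the mesenchyme below it. In the mammary gland, repression by Gli3 is known to be needed for bud formation, and ectopic pathway activity can convert mammary buds toward hair-follicle-like structures.

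The 6 libraries held 4750989 to 7806908 fragments assigned to genes, and expression is given as CPM, that is fragments scaled by the normalized library size of the study. A floor of 3 fragments in a library corresponded to 0.393 to 0.610 CPM, and covers counting error only. Fold changes are differences of mean log2(CPM + 0.5) between tumors and glands, with standard errors (SE), tested by limma with Benjamini-Hochberg adjustment over all genes. Genes that passed an adjusted p threshold of 0.05 and changed by 1 or more on the log2 scale, either way, are termed differentially expressed genes (DEGs). Glands M11035 and M11640 stood apart from M9232 in skeletal muscle markers, which are given with the other cell type markers. The 8 genes were counted against 4309 DEGs, 2212 higher and 2097 lower in tumors. Atf3 itself was at 4.47, 8.09 and 22.6 CPM in glands M11035, M11640 and M9232 and at 13.4, 18.4 and 19.3 CPM in tumors T11035, T11640 and T9232. Its groups overlapped, and it was not a DEG (log2 fold change 0.80, SE 0.49, adjusted p = 0.223 by limma). This rested on single glands, since Atf3 was called without gland M9232 (1.41, adjusted p = 0.00804) and without both libraries of that mouse (1.31, 0.0321), and was at 0.30 (0.594) without gland M11035 and 0.46 (0.471) without both libraries of its mouse, all by limma. It was at 0.52 with edgeR and 0.54 with DESeq2 (adjusted p = 0.44 and 0.43).

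Of the 8 core genes, Shh, Ptch1, Gli1, Gli2 and Gli3 were DEGs higher in tumors, and Hhip was a DEG lower in tumors. That is 5 of 8 higher, where 14.5% of all genes tested were called higher, and 1 of 8 lower, where 13.7% were called lower. Smo passed the adjusted p but not the fold change, as did 1980 of the 15280 genes tested, and Sufu passed neither. The adjusted p alone, whatever the fold change, was passed by 41.2% of all genes. The largest changes were those of the ligand and of the Gli2 and Gli3 factors. The median log2 fold change was 1.34 over the 8 genes and -0.0028 over all genes. The former does not depend on the exact value of Shh, which is the highest of the 8. Values of tumors and glands did not overlap for 7 of the 8 genes, 6 higher and 1 lower, while 54.0% of all genes did not overlap, 27.6% higher and 26.3% lower. In bulk tissue, fewer cells of a type and less RNA per cell cannot be told apart, and this holds for every gene described here.

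**Figure D1:**
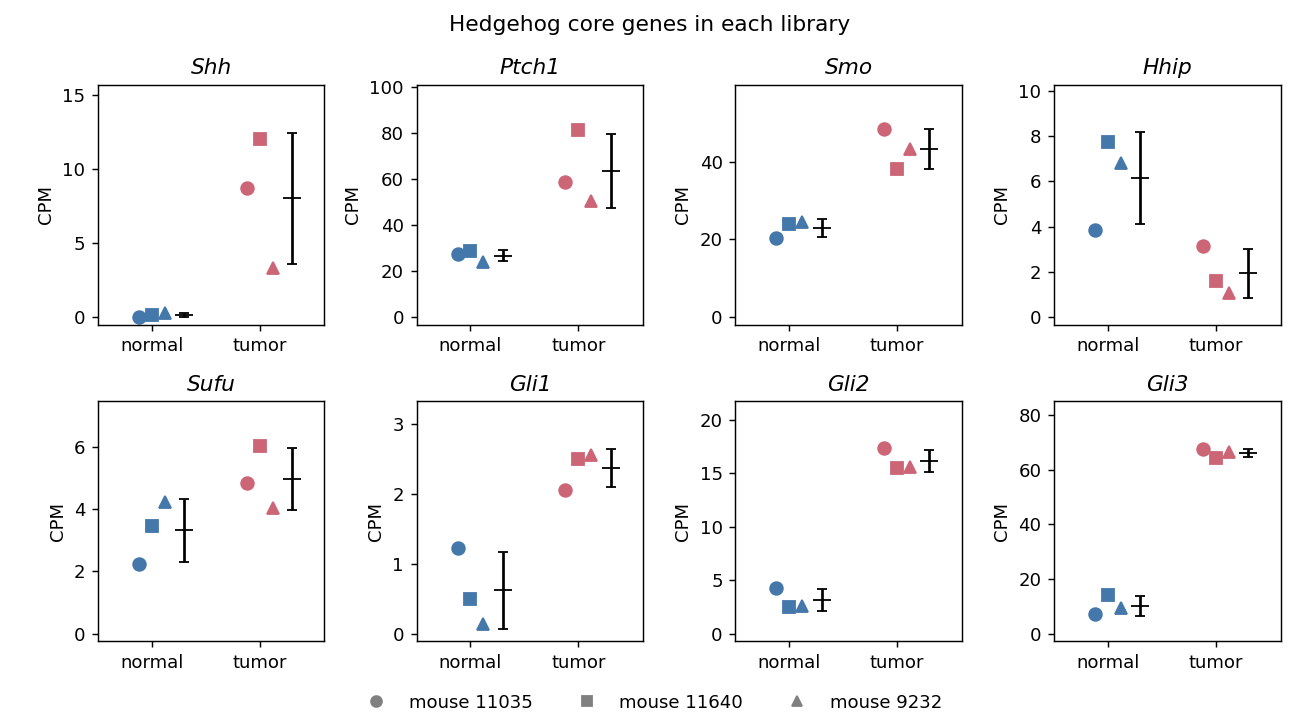
CPM of the 8 core genes in each of the 6 libraries, with 1 panel a gene, 1 point a library (shapes for the mice) and a mark at the mean of each tissue with SD whiskers. Tumors lie above all glands for Shh, Ptch1, Smo, Gli1, Gli2 and Gli3, below all glands for Hhip, and overlap them for Sufu.

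Shh encodes the secreted ligand (mm9 chr5:28783355-28793641, minus strand). It was at 0, 0.165 and 0.274 CPM in glands M11035, M11640 and M9232, which is 0, 1 and 2 fragments. In tumors T11035, T11640 and T9232 it was at 8.75, 12.06 and 3.30 CPM, or 47, 92 and 22 fragments. Every gland was at or under the floor, and every tumor was above it, with T9232 the lowest. The mean of 8.03 ± 4.42 CPM in tumors (SD, n = 3) was 15.9 times the floor of 3 fragments averaged over the glands. For the tumor mean, this is a lower bound on the fold change against the glands. On the log2(CPM + 0.5) scale the difference was 3.58 (SE 0.47, adjusted p = 0.000465 by limma), a value that depends on the pseudocount and reached 5.65 when DESeq2 was run on the fragments. Within the 3 mice, in the same order, it was 4.21, 4.24 and 2.30. At this depth Shh was not detectable above the floor in any gland, which does not show that it was absent there.

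Dhh, the only other Hedgehog ligand in the table, is known from Schwann cells and the testis. It was at 2.03, 2.31 and 2.74 CPM in the glands and 1.49, 1.57 and 2.25 CPM in the tumors. Its groups overlapped, and it was not called (log2 fold change -0.34, adjusted p = 0.385 by limma). Ihh was not analysed here.

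Ptch1 encodes the receptor that binds the ligand and is at the same time a Gli target (mm9 chr13:63610261-63674474, minus strand). It was at 27.7, 28.6 and 23.9 CPM in glands M11035, M11640 and M9232 and at 58.8, 81.4 and 50.7 CPM in tumors T11035, T11640 and T9232. The lowest tumor was above the highest gland. Its mean was 26.7 ± 2.45 CPM in glands and 63.6 ± 15.9 CPM in tumors (SD, n = 3 each), and the log2 fold change was 1.21 (SE 0.20, adjusted p = 0.00175 by limma). The tumors had the same order for Ptch1 as for Shh, with T11640 highest and T9232 lowest, over 3 libraries only.

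Smo encodes the membrane protein that Patched-1 holds inactive (mm9 chr6:29685694-29711365, plus strand). Glands were at 20.3, 24.0 and 24.5 CPM, and tumors at 48.4, 38.1 and 43.2 CPM, in the same order of mice. All tumors were above all glands. The log2 fold change of 0.90 (SE 0.17, adjusted p = 0.00336 by limma) was under the fold change threshold, which it passed only without the mouse of T11640, at 1.02.

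Hhip encodes a membrane protein that binds Hedgehog ligands and keeps them from the receptor (mm9 chr8:82490014-82581905, minus strand). Glands were at 3.86, 7.76 and 6.84 CPM and tumors at 3.16, 1.57 and 1.05 CPM. The groups did not overlap, but gland M11035 and tumor T11035 were close, with 19 and 17 fragments. Hhip averaged 6.16 ± 2.04 CPM in glands and 1.93 ± 1.10 CPM in tumors (SD, n = 3 each), with a log2 fold change of -1.50 (SE 0.40, adjusted p = 0.0161 by limma). Within the 3 mice, in the same order, the difference was -0.252, -1.995 and -2.24. The call was lost without gland M11640 (-1.31, adjusted p = 0.057), without tumor T11640 (-1.43, 0.061) and without tumor T9232 (-1.22, 0.059), and without both libraries of the mouse of T11640 (-1.25, 0.156) or of T9232 (-1.12, 0.118), all by limma.

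Hhip and Ptch1 are both textbook Gli targets that act against the ligand, and they differed in opposite directions, so the 250 bases before their annotated starts are shown (RefSeq, GRCm38.p6, a later build than the mm9 of the expression table). They lie at chr8:80058009-80058258 for Hhip and chr13:63565736-63565985 for Ptch1, both on the minus strand, and are written 5′ to 3′ with an ATF/CRE motif in capitals.
Hhip: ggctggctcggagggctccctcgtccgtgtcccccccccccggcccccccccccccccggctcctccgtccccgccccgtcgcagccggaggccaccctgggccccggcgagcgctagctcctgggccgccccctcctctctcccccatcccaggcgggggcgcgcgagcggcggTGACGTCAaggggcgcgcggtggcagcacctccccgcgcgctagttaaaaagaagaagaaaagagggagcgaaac
Ptch1: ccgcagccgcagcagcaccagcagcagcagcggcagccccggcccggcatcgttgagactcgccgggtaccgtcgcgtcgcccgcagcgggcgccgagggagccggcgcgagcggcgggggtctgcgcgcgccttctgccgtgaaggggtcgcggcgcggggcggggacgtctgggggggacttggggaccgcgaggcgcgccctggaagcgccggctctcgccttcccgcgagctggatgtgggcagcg
Both stretches were rich in G and C, with 76% GC and 28 CG dinucleotides in Hhip and 78.4% and 41 in Ptch1. The letters TGACGTCA, the palindromic ATF/CRE motif, occurred once in Hhip, 75 bases before the start, and in no other of the 6 core genes with a promoter in the table. They occurred in 1.79% of all 32851 promoters of 300 bases. The Gli motif GACCACCCA or its complement TGGGTGGTC occurred in 0 of the 6 and in 0.253% of all promoters, and the AP-1 motif TGANTCA in 0 of the 6 and 7.81%. The bases past the start occurred in a protein-coding GENCODE vM1 transcript of the same gene for Hhip, Sufu and Gli2. They did not for Ptch1, Smo and Gli3, so the start used for Ptch1 is less certain than that for Hhip. A match of letters is a description, and no binding was measured in these mice. With motifs this rare, counts over 6 promoters tell little. A link between these letters and the opposite directions of Hhip and Ptch1 was not tested.

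Sufu encodes the cytoplasmic protein that holds Gli factors back (mm9 chr19:46471386-46563294, plus strand). It was at 2.24, 3.47 and 4.24 CPM in glands M11035, M11640 and M9232 and at 4.84, 6.03 and 4.05 CPM in tumors T11035, T11640 and T9232. Gland M9232 was above tumor T9232, so the groups overlapped. The log2 fold change of 0.54 (SE 0.30, adjusted p = 0.181 by limma) did not pass, and within the 3 mice the difference was 0.96, 0.72 and -0.06.

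Gli1 is an activator without a repressor form, and its transcript is commonly used as a readout of pathway activity (mm9 chr10:126766945-126778645, minus strand). Glands were at 1.22, 0.50 and 0.14 CPM, or 6, 3 and 1 fragments, and tumors at 2.05, 2.49 and 2.55 CPM, or 11, 19 and 17 fragments. All tumors were above all glands, and glands M11640 and M9232 were at or under the floor. Gli1 averaged 0.617 ± 0.552 CPM in glands and 2.36 ± 0.274 CPM in tumors (SD, n = 3 each), with a log2 fold change of 1.47 (SE 0.42, adjusted p = 0.0215 by limma). The difference within the 3 mice was, in the same order, 0.57, 1.59 and 2.26.

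The Gli1 call was lost when single libraries were left out, namely gland M11640 (1.45, adjusted p = 0.0535), gland M9232 (1.12, 0.0532), tumor T11640 (1.44, 0.068) and tumor T9232 (1.42, 0.0655), all by limma. It was also lost without both libraries of the mouse of T11640 (1.41, 0.146) or of T9232 (1.08, 0.128). Exons of Gli1 overlap those of Arhgap9, and reads of overlapping exons can be lost or misplaced in counting. Arhgap9 was lower in tumors (log2 fold change -1.52). Whether the overlap affected the counts of Gli1 was not tested.

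Gli2, the main activator downstream of Smoothened (mm9 chr1:120730709-120950196, minus strand), was at 4.27, 2.48 and 2.60 CPM in glands M11035, M11640 and M9232. Tumors T11035, T11640 and T9232 were at 17.3, 15.5 and 15.6 CPM, close to each other and all above the glands. Means of 3.12 ± 1.001 and 16.1 ± 1.03 CPM (SD, n = 3 each) gave a log2 fold change of 2.23 (SE 0.25, adjusted p = 0.000203 by limma). Gli3, the main source of the repressor form (mm9 chr13:15555068-15821859, plus strand), was at 7.12, 14.2 and 9.30 CPM in the glands and 67.6, 64.4 and 66.4 CPM in the tumors. Its tumor values were the closest together of the 8 genes relative to their mean. Means of 10.2 ± 3.63 and 66.1 ± 1.62 CPM gave a log2 fold change of 2.69 (SE 0.24, adjusted p = 6.1e-05 by limma). Within the 3 mice the difference was 1.90, 2.42 and 2.38 for Gli2 and 3.16, 2.14 and 2.77 for Gli3, higher in the tumor of every mouse. Transcript levels do not tell the full-length protein from the cut repressor.

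**Figure D2:**
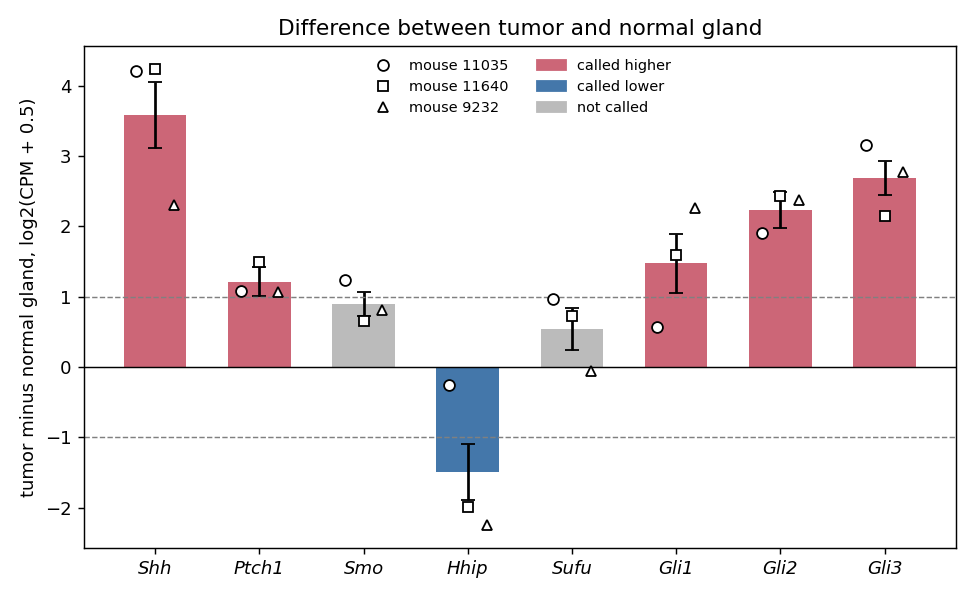
Log2 fold change of each core gene, tumor minus normal gland on the log2(CPM + 0.5) scale, as bars with SE whiskers, the 3 within-mouse differences as points and dashed lines at -1 and 1. Shh, Gli3 and Gli2 show the largest differences, Hhip is the only gene with a bar below 0, and the mouse of T11035 gives the smallest size for Hhip and Gli1.

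Compared per kb of exon, which allows genes of different length to be set side by side, Smo and Ptch1 led in both tissues. The lengths cover all exons of a gene in GENCODE vM1, while fragments had been counted on RefSeq genes. Whether closer ranks, or the shares of the Gli family, hold with other lengths was not tested. In the glands the means were 6.07 ± 0.598 CPM per kb for Smo and 4.06 ± 0.373 for Ptch1 (SD, n = 3), and these ranges did not overlap. Hhip at 1.26 ± 0.416 and Gli3 at 1.07 ± 0.379 CPM per kb followed and overlapped each other. Sufu at 0.477 ± 0.146 and Gli2 at 0.454 ± 0.146 CPM per kb overlapped as well. Gli1 was at 0.163 ± 0.146 and Shh at 0.0543 ± 0.0512 CPM per kb, again with overlapping ranges.

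In the tumors Smo, at 11.4 ± 1.36 CPM per kb, and Ptch1, at 9.67 ± 2.42, overlapped. Gli3 came next at 6.89 ± 0.169 CPM per kb, and its range lay wholly under that of Ptch1. Shh at 2.98 ± 1.64 CPM per kb overlapped with Gli2 at 2.35 ± 0.15. Sufu at 0.716 ± 0.144, Gli1 at 0.624 ± 0.0724 and Hhip at 0.394 ± 0.225 CPM per kb closed the order, each overlapping its neighbor. Hhip thus went from the third place in the glands to the last in the tumors, and Shh from the last place to the fourth.

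**Figure D3:**
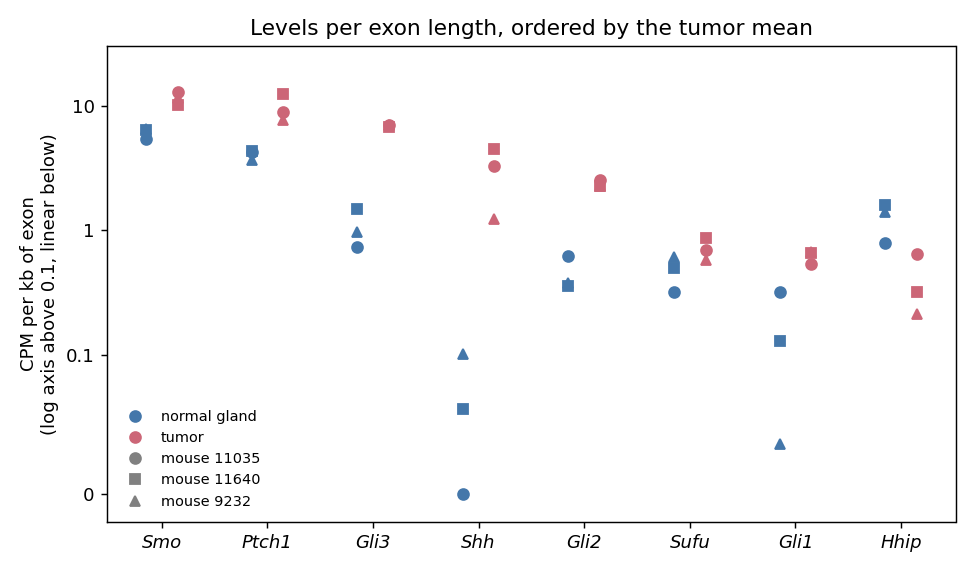
Level of the 8 core genes in CPM per kb of exon, 1 point a library with a shape for each mouse, ordered by the tumor mean. The axis is logarithmic above 0.1 and linear below. Smo and Ptch1 are highest in both tissues, and Shh is near 0 in the glands.

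Since Gli3 rose along with the activators, the makeup of the Gli family was compared within each library. Gli3 made up 69.7%, 69.8% and 70.2% of the summed Gli CPM per kb in tumors T11035, T11640 and T9232, and 44.0%, 75.1% and 70.1% in glands M11035, M11640 and M9232. Gli2 made up 24.9%, 23.4% and 23.0% in the tumors and 36.9%, 18.3% and 27.3% in the glands. For Gli1 the shares were 5.36%, 6.84% and 6.83% in the tumors and 19.1%, 6.64% and 2.61% in the glands. The makeup was alike in the 3 tumors, and their shares lay inside the range of the glands for each of the 3 factors.

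The log2 ratio of Gli1 to Gli3 was -2.15, -3.88 and -3.94 in the glands and -4.74, -4.44 and -4.46 in the tumors. With the pseudocount of 0.5 CPM all tumors were below all glands, by -1.22 on average. The p was 0.1 in a two-sided exact permutation test, the smallest that 3 against 3 libraries allow. Glands M11640 and M9232 had 3 and 1 fragments of Gli1, at or under the floor, so the pseudocount weighs on their ratios. With 0.1 CPM in its place the groups were no longer apart, and the difference was -0.64 (exact permutation p = 0.7). With 0.5 CPM the difference was -0.63 without gland M11035. The log2 ratio of Gli2 to Gli3 was -0.68, -2.30 and -1.66 in the glands and -1.93, -2.02 and -2.06 in the tumors. These overlapped (difference -0.46, exact permutation p = 0.5), and the difference was -0.02 without gland M11035. With 3 libraries a group, a permutation test of these ratios cannot reach 0.05.

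Of 64 other genes of the pathway, 59 were in the table, 10 were called higher, 3 lower and 46 not called. These counts, and those of the single lists below, are to be read against the 14.5% of all genes called higher and the 13.7% called lower. The median log2 fold change over the 59 was 0.12. A further 5 of the 59 passed the adjusted p without the fold change, as did 1980 of the 15280 genes tested. The called genes were spread unevenly over the 7 role lists, with 7 of the 13 among reported Gli targets.

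Among proteins that acylate or release the ligand, Scube1, a secreted carrier that helps free the lipid-bound ligand, was at 2.44, 5.29 and 5.06 CPM in the glands and 29.8, 27.3 and 20.7 CPM in the tumors. It rose with a log2 fold change of 2.52 (SE 0.30, adjusted p = 0.00029 by limma). The remaining 5 genes of this list were not called by limma. Of its relatives, Scube2 was at 0.610, 0.330 and 0.274 CPM in the glands, all at or under the floor, and at 0.744, 2.62 and 1.798 CPM in the tumors. It missed the threshold (log2 fold change 1.22, adjusted p = 0.051 by limma) and was called under 5 of 19 alternatives, among them edgeR (2.12, adjusted p = 0.0362) but not edgeR or limma with mouse as a block (adjusted p = 0.0599 and 0.0854). Scube3 was the lowest of the list at -0.53 (adjusted p = 0.239 by limma).

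Among co-receptors and other ligand-binding proteins, Lrp2, an endocytic receptor that can bind Shh, was at 16.3, 3.30 and 9.03 CPM in the glands and 1.12, 1.31 and 1.35 CPM in the tumors, and fell by 2.27 on the log2 scale (adjusted p = 0.00632 by limma). The co-receptors Cdon, Boc and Gas1 were not called, with log2 fold changes of -0.28, -0.26 and 0.61. Gpc3, a glypican that can bind the ligand, had the highest log2 fold change of this list, 1.10, was at 2.64, 18.5 and 6.02 CPM in the glands and 8.93, 17.2 and 22.5 CPM in the tumors, and was not called (adjusted p = 0.181 by limma). It was called without gland M11640 (1.79, adjusted p = 0.0186 by limma) and was at 0.49 (adjusted p = 0.484) without gland M11035.

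Of the 8 Smoothened partners at the cilium, 0 were called by limma, by edgeR or by DESeq2, while limma called 28.2% of all genes tested. An unadjusted limma p under 0.05 was held by 3 of the 8. At least 41.2% of all genes held such a p, since that share passed the adjusted p. Their log2 fold changes ran from -0.57 for Adrbk1, a receptor kinase, to 0.95 for Gpr161, a ciliary receptor that raises cAMP. The adjusted p alone was passed by Gpr161 (0.0461 by limma) and by Arrb1, an arrestin, which was lower in all tumors (-0.57, adjusted p = 0.0294 by limma). With a pseudocount of 0.1 CPM Gpr161 was called, at 1.24. Its adjusted p passed under 5 of 19 alternatives, and failed with mouse as a block (0.0791 in limma, 0.0876 in edgeR), with edgeR (0.0524), with DESeq2 (0.125), with equal library totals (0.0554) and whenever a library or a mouse was left out (0.0513 to 0.2).

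Among 16 genes of Gli processing and turnover, 3 were called, where 28.2% of all genes tested were called. Prkaca encodes a catalytic subunit of protein kinase A, which marks Gli proteins for cutting. It went from 42.9, 58.8 and 32.7 CPM in the glands to 16.9, 15.6 and 16.9 CPM in the tumors. Its fall was 1.38 on the log2 scale (adjusted p = 0.00155 by limma). Prkacb, which encodes another catalytic subunit, averaged 116 CPM in the glands and 103 CPM in the tumors. Its groups overlapped, and it was not called (log2 fold change -0.17, adjusted p = 0.354 by limma). Csnk1e and Csnk1a1 encode casein kinases that also phosphorylate Gli proteins. Csnk1e rose from 13.6 ± 2.22 to 34.0 ± 2.23 CPM (SD, n = 3 each, log2 fold change 1.30, adjusted p = 0.000686 by limma). Csnk1a1 rose by 1.02 (adjusted p = 0.000363 by limma), and its fold change was under the threshold, at 0.96 to 0.98, without gland M11035, tumor T11640, the mouse of T11035 or that of T11640.

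Of 14 genes of the primary cilium, B9d1, of the transition zone, was called at 1.12 (adjusted p = 0.0358 by limma), a call kept under 9 of 19 alternatives and lost with a pseudocount of 1 CPM and with DESeq2. The lowest gene of this list, Ift140 of the retrograde transport complex, was at -0.77 and passed the adjusted p alone (0.0108 by limma). So did Arl13b, a ciliary GTPase (0.66, adjusted p = 0.00819), and Tulp3, which carries receptors into the cilium (0.71, adjusted p = 0.0306 by limma), both higher in all tumors. Of all genes tested, 28.2% were called, 41.2% passed the adjusted p alone, and 27.6% were higher in all tumors. The median of the list was 0.05.

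Of 9 other reported Gli targets in the table, 6 were called higher and 1 lower. Of all genes tested, 14.5% were called higher and 13.7% lower. The median log2 fold change of the 9 was 1.49. Grem1, a secreted BMP antagonist, had the largest fold change, from 15.7, 5.45 and 5.88 CPM in the glands to 59.7, 44.7 and 126 CPM in the tumors (log2 fold change 3.04, SE 0.46, adjusted p = 0.00106 by limma). Ccnd1, the cyclin of the G1 phase, went from 76.5, 56.8 and 70.3 CPM to 424, 389 and 465 CPM (2.65, SE 0.16, adjusted p = 7.56e-06 by limma). Its exons overlap those of Oraov1, and the paper counts Ccnd1 among Wnt/beta-catenin pathway genes and their targets. Whether Gli factors drive any gene of this list in these tumors was not tested.

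Mycn, a Myc family factor, rose from 1.50 ± 1.36 to 7.94 ± 1.92 CPM (SD, n = 3 each, log2 fold change 2.26, adjusted p = 0.0048 by limma). Bmp4, a BMP ligand, rose by 1.50 (adjusted p = 0.00294) and Foxm1, a factor of the G2 and M phases, by 1.49 (adjusted p = 0.0033 by limma). Without the mouse of T11640 the calls of Mycn (adjusted p = 0.0623) and Bmp4 (0.0547) were lost. Ccnd2 rose by 1.06 (adjusted p = 0.00375 by limma) and was under the fold change without gland M9232 (0.83), tumor T9232 (0.996) or both (0.77).

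Bcl2, an inhibitor of apoptosis, was the target called lower, from 188, 120 and 153 CPM in the glands to 57.1, 55.7 and 54.1 CPM in the tumors (log2 fold change -1.43, adjusted p = 0.000369 by limma). Bcl2 and Hhip thus differed in the direction opposite to the 6 other called targets and to Ptch1 and Gli1.

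**Figure D4:**
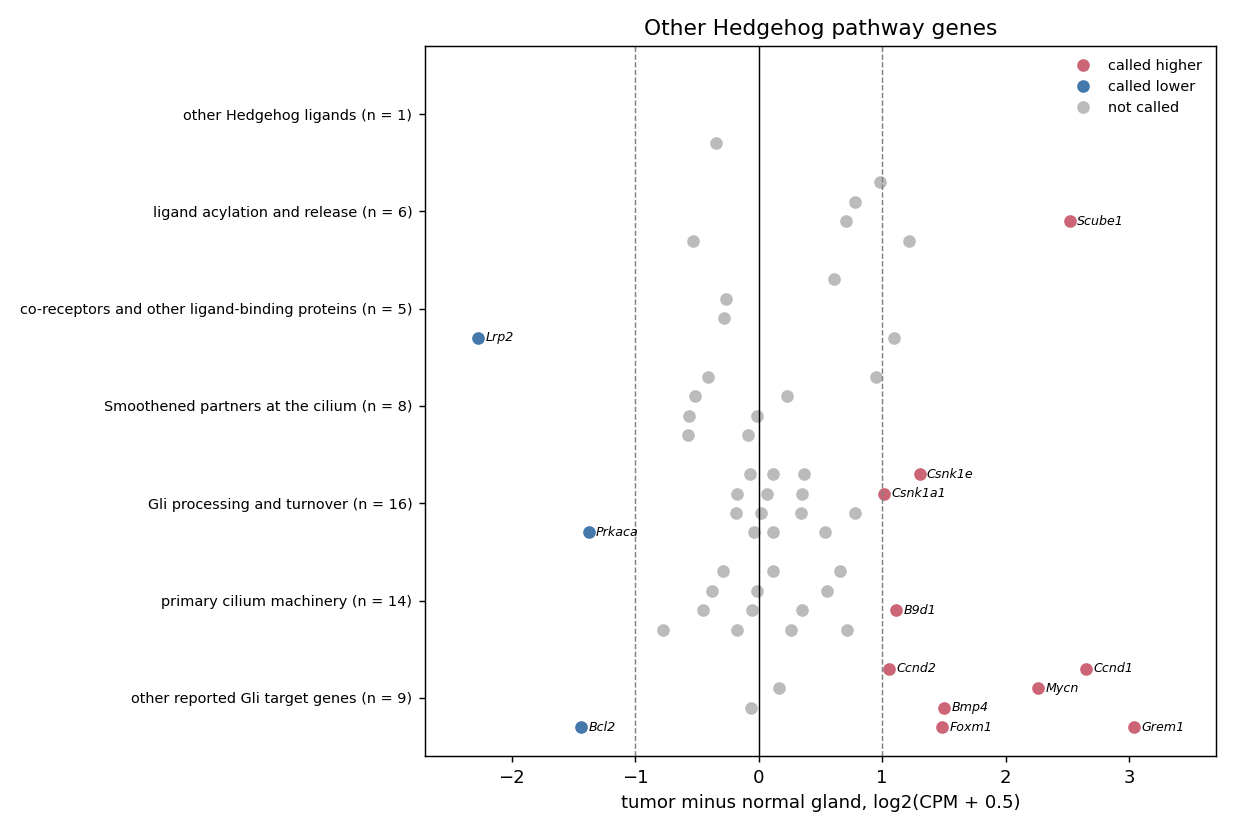
Log2 fold change (tumor minus normal gland, log2(CPM + 0.5) scale) of the other pathway genes, 1 point a gene, in rows by role, with genes that pass both thresholds named and dashed lines at -1 and 1. Points are spread within a row only to keep them apart. Called genes are most frequent in the row of reported Gli targets.

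Markers of several cell types differed between the same tumors and glands as the core genes. Their counts of called genes are to be read against the 14.5% of all genes called higher and the 13.7% called lower. Basal and squamous epithelial markers summed to 43.1 to 100.1 CPM in the glands and 3302 to 4545 CPM in the tumors, with 8 of 8 called higher and Lor at 0 in all glands. Hair follicle and placode markers summed to 23.4 to 46.8 CPM in the glands and 180.3 to 307.6 CPM in the tumors. The keratins Krt25, Krt27 and Krt71 had the highest tumor means of this list (89.7, 62.1 and 25.4 CPM), and Edar was at 6.27 CPM. Of these 9 markers 8 were called higher, Foxn1 and Hoxc13 were at 0 in all glands, and Sox9 was not called. Hoxc13 had 1 fragment in tumor T11035. Calls were kept under 9 of 18 alternatives for Hoxc13, 11 of 19 for Msx2 and 15 of 19 for Edar, and under all 19 for the other called markers. Fibroblast markers, of cells that can respond to the ligand, summed to 963.7 to 3655 CPM in the glands and 8523 to 9158 CPM in the tumors, with 4 of 8 called higher, namely Pdgfrb, Col1a1, Col1a2 and Col3a1. Without the 3 collagen genes, a choice made after seeing the data, the sums were 512.8 to 1924 CPM in the glands and 1055 to 1548 CPM in the tumors and overlapped, and Pdgfra, Dcn, Lum and Thy1 were not called (log2 fold changes -0.23, 0.09, 1.19 and 0.78). Simple epithelial markers summed to 210.6 to 441.3 CPM and 670.8 to 982.5 CPM, with 5 of 6 called higher.

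Adipocyte markers summed to 3131 to 6315 CPM in the glands and 158.5 to 214.9 CPM in the tumors, with 8 of 8 called lower. B cell markers (5 of 5) and T cell markers (4 of 4) were also called lower, from 141.9 to 358.2 CPM down to 2.23 to 4.09 CPM and from 91.2 to 238.9 CPM down to 12.3 to 21.3 CPM. Endothelial markers, of 6, had 3 called lower, and their sum went from 357.2 to 486.4 CPM in the glands to 201.7 to 289.8 CPM in the tumors. Of these calls, those of Kdr and Vwf were each kept under 12 of 19 alternatives. Schwann cell markers, of cells known to make Dhh, had 3 of 5 called lower, at 57.2 to 80.1 CPM and 21.6 to 49 CPM. Macrophage markers had 1 of 6 called lower, where 13.7% of all genes were, and their sums overlapped at 1042 to 3775 CPM and 1078 to 2295 CPM. The called macrophage marker, Cd163, had overlapping groups and kept its call under 12 of 19 alternatives. Smooth muscle and pericyte markers had 1 of 5 called lower, at 249.1 to 586.1 CPM and 224.4 to 295.6 CPM. Skeletal muscle markers had 1 of 6 called lower, Mylpf, whose call was kept under 11 of 19 alternatives. These markers set the glands apart from each other, at 3745 CPM in M11035, 1481 CPM in M11640 and 4.24 CPM in M9232, against 7.34 to 14.1 CPM in the tumors. The part of these markers in the differences of the core genes was not tested.

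**Figure D5:**
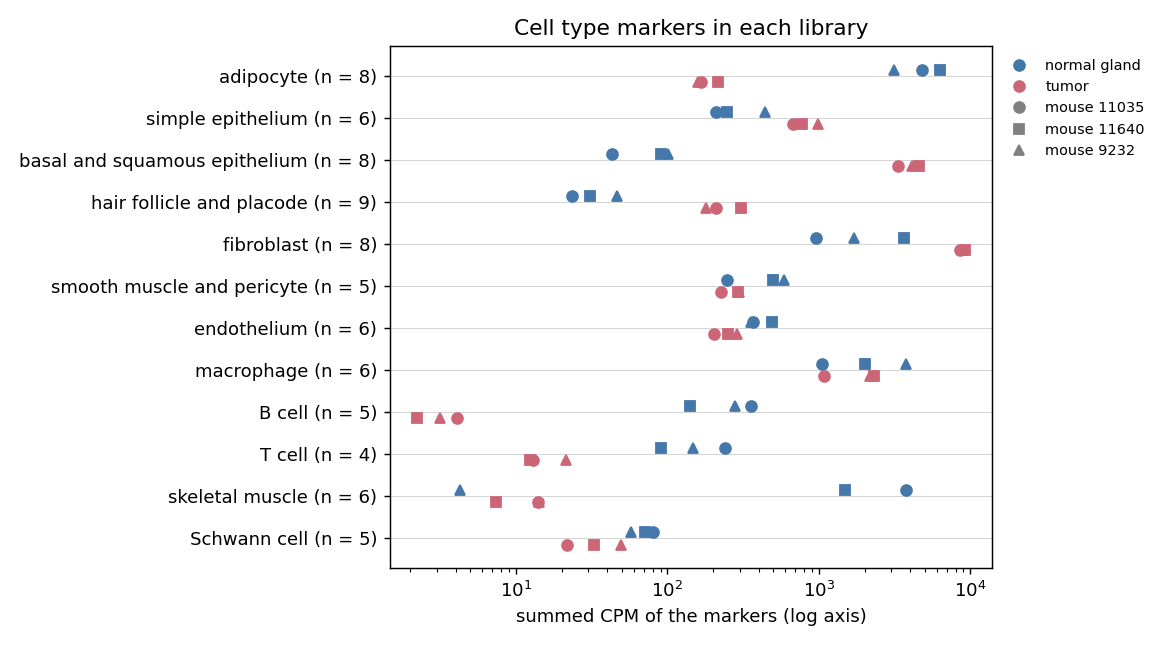
Summed CPM of each marker list in each library on a log axis, 1 point a library. Summed basal and squamous, hair follicle and, through 3 collagen genes, fibroblast markers are higher in all tumors, and adipocyte, B cell and T cell markers higher in all glands.

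The genes whose pattern over the 6 libraries was nearest to Shh and Gli1 were listed as a description, by the root mean square difference between log2(CPM + 0.5) values centred on each gene's mean, among 14711 genes. For Shh they were 4833423E24Rik (0.20), which was listed at 0 in all glands, Bmp2 (0.22), a BMP ligand, and Epha3 (0.27), an ephrin receptor. Bmp2 went from 5.69 ± 1.66 CPM in the glands to 63.1 ± 23.9 CPM in the tumors, and Epha3 from 3.19 ± 1.07 to 35.3 ± 14.5 CPM (SD, n = 3 each). In all 3 of these genes tumor T11640 was highest and T9232 lowest, as for Shh. For Gli1 they were Tpm1 (0.10), Ak1 (0.13) and Polr3g (0.16), with gland M9232 lowest in each, as for Gli1. Genes picked for nearness over the same 6 libraries share such an order through the selection, so it is no separate result.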

How the data were processed

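According to the paper's methods and the submitters' processing notes, the authors demultiplexed reads with CASAVA 1.8.2, mapped read pairs to mm9 with TopHat2 2.0.3, counted fragments per RefSeq gene with HTSeq 0.5.3p9 and dropped genes with fewer than 10 fragments in all. Libraries were made from total RNA with the Ovation RNA-Seq System V2, whose strand setting in counting is not given in the sources used here. The authors deposited CPM computed with edgeR 3.6.1 on the effective library size. This deposited normalized signal steps by what 1 fragment is worth, and whole fragments were recovered for 100% of values (tolerance 0.01), with a lowest gene total of 11.

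Libraries were grouped by their labels (3 normal glands, 3 tumors), and 0 columns were left out. log2(CPM + 0.5) was tested with limma 3.58.1 (trend, no block), adjusted over 15280 genes, at an adjusted p of 0.05 and a log2 fold change of 1. Alternatives used edgeR 4.0.16 quasi-likelihood and DESeq2 1.42.0 on the recovered fragments (R 4.3.3), and the test was tried on simulated data. Gli ratios had two-sided exact permutation tests. P-values measure the spread between these 3 animals a tissue.

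The labels give gland and tumor the number of the animal both were taken from, which pairs the samples. Deviations from the group means correlated at 0.107, 0.151 and 0.0168 in mice 11035, 11640 and 9232 (14712 genes). Between gland and tumor of different mice they correlated at -0.168 to 0.0405, so mouse 9232 was not set apart from the mismatched pairs.

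The members, gene lists and rules were chosen with earlier results of these data known. Genes named are the 8 members, each called gene and the highest and lowest of the 7 pathway lists, Atf3, and the 3 genes nearest to Shh and Gli1 (mean of at least 1 CPM). Scube2, Cdon, Boc, Gas1, Arrb1, Prkacb, Arl13b, Tulp3, Arhgap9 and Oraov1 are named outside this rule, after their values were seen, and so are single cell type markers. Ihh, Hhatl, Foxf1, Foxf2 and Foxl1 and the marker Lhx2 were not analysed here. A further pathway gene is not reported here and is in no list count. Exon lengths and mm9 positions are from GENCODE vM1, and promoters from RefSeq (GRCm38.p6), which matched 6 of 8 members. By BLAST 2.17.0, 0 of 8 members had another gene at least 95% identical over at least 500 bases.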

Additional observations from a re-analysis of the deposited data

How the results depend on the processing

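Each result was recomputed under 19 alternatives. Shh, Ptch1, Gli2 and Gli3 kept their calls under all 19, Hhip under 14 and Gli1 under 13, Sufu was called under 0 and Smo under 1. Over 27 named genes, 17 had the same call throughout, 30 of the gene and alternative pairs lost a call, 3 gained one and 0 reversed. Each lost call came from leaving out libraries, apart from 2 of B9d1. All 4309 DEGs became 4462 with edgeR, 4436 with DESeq2 and 4298 with mouse as a block in limma, and the paired fits, in limma and edgeR, left the members at 5 higher and 1 lower. In the paired form the Gli1 to Gli3 difference stayed at -1.22 (exact sign-flip permutation p = 0.25, the smallest 3 pairs allow). Leaving out a library or a mouse gave 3180 to 4374 DEGs, 4 to 5 members higher, 0 to 1 lower, and 6 to 10 other pathway genes higher and 3 lower. The count of 0 members lower came without gland M11640, tumor T11640, tumor T9232, the mouse of T11640 or that of T9232, and that of 6 without the mouse of T11640. Each lost call of Hhip or Gli1 kept its direction. Rescaling moved the median log2 fold change of all genes to -0.0151 at most. Gli1 had at most 19 fragments in a library and Hhip at most 50, and the smallest difference detectable at that depth was not computed.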
